A study of Mus musculus with 23 samples.

Results

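The knockout effect of the pannexin 1 gene Panx1 was compared between whole hearts and isolated cardiomyocytes of mice treated with isoproterenol. The difference of effects is the heart effect (hearts labelled knockout minus hearts labelled wild-type) minus the cardiomyocyte effect (knockout minus wild-type). All 17 isoproterenol libraries of the 23 in the series entered it, chosen by their labels and column headers and not by any measured value, and 11386 of 46077 genes passed the filter on low values.

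Pannexin 1 forms membrane channels that release ATP, which acts on purinergic receptors of neighbouring cells and can call leukocytes into tissue. Isoproterenol is a beta-adrenergic agonist whose chronic infusion drives cardiac hypertrophy and fibrosis. A whole heart contains fibroblasts, endothelium, pericytes and leukocytes beside its cardiomyocytes, whereas a cardiomyocyte isolate is meant to be depleted of them, so that one deletion can be read in both preparations. By its title, the study concerns the metabolism of cardiomyocytes and the recruitment of neutrophils in heart failure.

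All mice were male and all groups received isoproterenol at 15 mg/kg/day over 14 days; ages are not given in the sources used here. Wild-type mice were Panx1fl/fl, with a floxed Panx1 gene. Knockout mice were Panx1myhc6, where the Myh6 promoter, a cardiomyocyte promoter, drives the deletion, so that other cells of the heart are expected to keep the gene. The groups were hearts labelled knockout (n = 4), hearts labelled wild-type (n = 5), knockout cardiomyocytes (n = 4) and wild-type cardiomyocytes (n = 4). Per the labels' protocols, RNA came from cardiomyocytes through TRIzol and a column and from tissue through bead homogenization and a column, so preparation and extraction cannot be told apart. Nothing states whether libraries come from separate animals, and the p-values measure the spread between libraries.

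Promoters of 3 genes are shown because H2-Eb1 and Asns are among the genes with the smallest p of their groups, antigen presentation and the integrated stress response, and because each promoter holds a motif known for its group. Sequences are from RefSeq on the GRCm38.p6 build and run from 250 bases before to 50 bases after the gene start. The Y box of major histocompatibility complex (MHC) class II promoters, a site of the factor NF-Y, is marked by the capitals CTGATTGG. It lies in H2-Eb1 at chr17:34305617-34305916 (plus strand), 62 bases before the start, and in H2-Aa at chr17:34287774-34288073 (minus strand), 51 bases before it.
H2-Eb1: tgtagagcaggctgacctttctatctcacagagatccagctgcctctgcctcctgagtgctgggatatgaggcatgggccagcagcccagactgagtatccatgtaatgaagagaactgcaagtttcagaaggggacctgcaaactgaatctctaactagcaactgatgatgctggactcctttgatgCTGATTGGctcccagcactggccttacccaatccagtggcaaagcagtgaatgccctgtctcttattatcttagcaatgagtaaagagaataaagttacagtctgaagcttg
H2-Aa: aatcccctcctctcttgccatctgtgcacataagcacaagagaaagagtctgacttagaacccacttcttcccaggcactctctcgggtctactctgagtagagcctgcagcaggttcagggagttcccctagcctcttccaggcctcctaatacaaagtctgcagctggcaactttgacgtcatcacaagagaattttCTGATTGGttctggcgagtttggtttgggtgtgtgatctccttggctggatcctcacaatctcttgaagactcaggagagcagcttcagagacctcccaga
The C/EBP-ATF response element TGATGNAA, bound by the stress factor ATF4, is marked by capitals in the promoter of the asparagine synthetase gene Asns at chr6:7693160-7693459 (minus strand), 23 bases before the start.
Asns: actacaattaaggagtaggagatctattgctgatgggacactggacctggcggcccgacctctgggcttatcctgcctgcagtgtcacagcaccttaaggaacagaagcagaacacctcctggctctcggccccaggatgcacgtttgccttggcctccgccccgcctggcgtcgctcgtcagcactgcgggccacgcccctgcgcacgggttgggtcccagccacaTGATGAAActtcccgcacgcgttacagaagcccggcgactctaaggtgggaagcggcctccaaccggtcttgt
Searched on both strands, CTGATTGG occurred in 4.1% of 32851 promoters and TGATGNAA in 3.97%. Counted by gene, as for the lists that follow, the shares were 4.7% and 4.51% of 27025 genes. The Y box was found in 6 of the 9 antigen presentation genes that had a promoter entry (H2-Aa, H2-D1, H2-Eb1, H2-K1, H2-Q7 and H2-T23). The response element was found in 6 of the 24 integrated stress and unfolded protein response genes with an entry (Asns, Chac1, Fgf21, Herpud1, Pycr1 and Trib3), and the Y box in 11 of those 24. These are matches of letters in a fixed window and not shown binding sites.

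Values are FPKM (fragments per kilobase of gene and per 1e6 reads, scaled between libraries by the authors). Effects are differences of log2(FPKM + 1), given with their standard error. Libraries held 21.03 to 39.6 M (1e6) assigned reads. Reads outside the mitochondrial chromosome came to 5.06 to 16.96 M in cardiomyocytes and 22.4 to 30.6 M in hearts, so low transcripts are measured less precisely in the isolated cells. Between libraries of a group, the median SD over genes was 0.185 and 0.154 in hearts labelled knockout and wild-type and 0.259 and 0.261 in knockout and wild-type cardiomyocytes. The cardiomyocyte label was checked against markers. Contraction genes summed to 3722 to 16250 FPKM in cardiomyocyte libraries and 13300 to 24890 FPKM in hearts, while lymphocyte genes summed to 246.1 to 1082 FPKM in cardiomyocyte libraries and 37.95 to 337.1 FPKM in hearts. Much of the latter is Cd74, a gene that is also on the antigen presentation list. Without it the lymphocyte sums were 72.61 to 653 FPKM in cardiomyocyte libraries and 3.424 to 264.5 FPKM in hearts, where only PNXM239 (264.5 FPKM) and PNXM199 (66.71 FPKM) were above 9.144 FPKM. On the scale of the table the isolates thus held contraction transcripts together with transcripts of other cells. Only PNXM654 passed the lowest heart in contraction genes. Endothelial genes summed to 718.7 to 1231 FPKM in cardiomyocyte libraries and 315.6 to 503.2 FPKM in hearts. Macrophage genes came to 428.4 to 1276 and 154.5 to 347.4 FPKM. Erythroid and neutrophil sums were also higher in every isolate than in every heart. Fibroblast, smooth muscle and pericyte, and adipocyte sums overlapped. These markers do not show isolates depleted of other cells. In such bulk libraries fewer cells of a type and less RNA per cell cannot be told apart.

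Panx1 itself (chr9:15005161-15045478, minus strand) was lower in knockout cardiomyocytes and higher in hearts labelled knockout. Its FPKM was 0.990, 1.00, 1.22 and 0.948 in knockout cardiomyocytes and 1.43, 1.89, 1.24 and 1.64 in wild-type ones, so the 4 knockout libraries lay under all 4 wild-type libraries by a narrow gap. In hearts it was 0.587, 0.915, 0.633 and 0.469 FPKM in those labelled knockout and 0.378, 0.400, 0.512, 0.431 and 0.338 in those labelled wild-type. The heart groups overlapped, with 3 of the 4 hearts labelled knockout above every heart labelled wild-type. This order is the reverse of that in cardiomyocytes, and whether the heart labels are right was not tested. By two-sided exact permutation of log2(FPKM + 1), the heart effect was 0.22 (p = 0.0238), the cardiomyocyte effect -0.32 (p = 0.0286, the smallest that 4 against 4 allow) and the difference 0.54 (p = 0.000454 over 8820 relabellings within preparation). Adjusted over the 6 permutation tests of the main measures of Panx1 and of the mitochondrial share, these came to 0.0429, 0.0429 and 0.00272. Alternative scales of both measures were left out of that adjustment. For both, relabelling for the difference assumes no genotype effect in either preparation. A small p there does not by itself show that the effects are unequal. In the fit over all genes (limma), the difference of 0.54 ± 0.14 had an adjusted p of 0.32. Panx1 passed the filter of that fit only with the wild-type cardiomyocytes, where it was highest, and no heart reached an FPKM of 1. Panx1 is a low transcript in all groups, and the table does not separate the deleted exons from the rest of the gene. Because of this result, each direction in hearts below follows the labels as given, and was not checked by any other marker of genotype.

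The mitochondrial chromosome took a share of assigned reads of 61.1 ± 10.6% (SD, n = 4) across knockout cardiomyocytes and 77.2 ± 1.82% (n = 4) across wild-type ones. Hearts had 19.7 ± 2.60% (n = 4) when labelled knockout and 23.2 ± 2.14% (n = 5) when labelled wild-type. The cardiomyocyte groups did not overlap, and the share fell by 16.1 percentage points in knockout cells (two-sided exact permutation, p = 0.0286, adjusted 0.0429 over 6 tests). The heart effect was -3.47 points (exact permutation, p = 0.0794, adjusted 0.0952). The difference of effects was 12.6 points (exact permutation, p = 0.120, adjusted 0.120). Without PNXM654, the knockout cardiomyocyte library of lowest share (46.8%), it was 7.84 points. Without PNXM199 and PNXM239, hearts that stand apart in other respects, it was 14.6 points (exact permutation, unadjusted p = 0.0435), an alternative chosen after seeing the data.

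**Figure D1:**
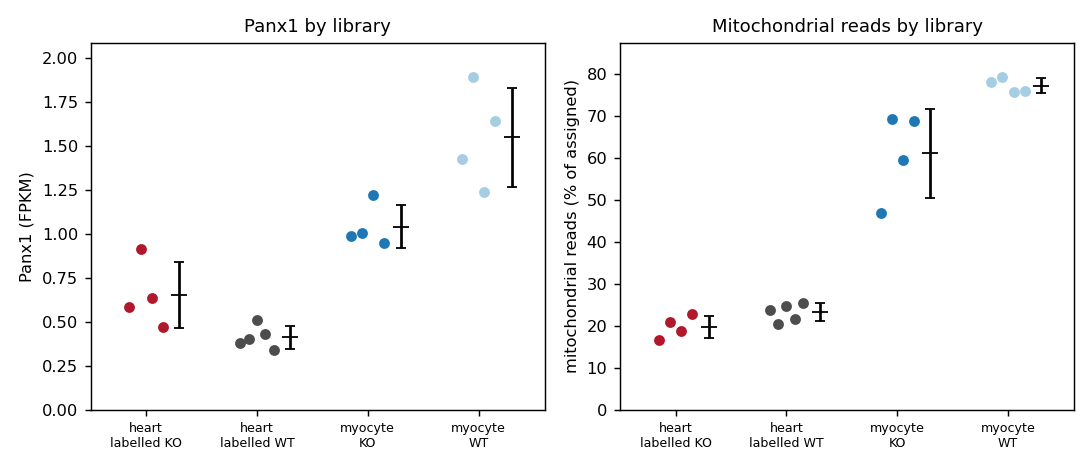
Panx1 in FPKM and mitochondrial reads in percent of assigned reads for each of the 17 isoproterenol libraries (points), with the mean and SD of each group (bars). Panx1 is lower in knockout than wild-type cardiomyocytes and mostly higher in hearts labelled knockout, and the mitochondrial share is lowest in PNXM654 among the cardiomyocyte libraries (46.8%).

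No gene was called in the difference of effects at an adjusted p below 0.05 (limma, 0% of 11386), and the smallest adjusted p was 0.231. At an unadjusted p below 0.05 there were 1240 genes (10.9%), of which 765 (6.72%) had a positive difference and 475 (4.17%) a negative one. limma-voom on recovered reads also called 0 genes, with 1088 at an unadjusted p below 0.05. Weights estimated for each library gave 170 called genes (118 higher and 52 lower). FPKM without the authors' scaling gave 1833 (8 higher and 1825 lower), with the median of all genes shifted to -0.47, so directions here are relative to that scaling. Each preparation on its own gave few calls as well. In hearts 1 gene was called (Ndnf, 0.00878%) and 293 were at an unadjusted p below 0.05 (2.57%; 1.29% higher and 1.28% lower). In cardiomyocytes 2 were called (Cd3d and Lck, 0.0176%) and 1362 were at an unadjusted p below 0.05 (12%, of which 3.42% higher and 8.55% lower). The contrast between preparations rests on a spread estimated over both together. With a variance weight for each tissue (limma), 742 genes in cardiomyocytes and 723 in hearts were at an unadjusted p below 0.05. Heart groups did not overlap in 0.878% of genes with the hearts labelled knockout above and in 1.48% with them below. For knockout cardiomyocytes these shares were 0.975% and 2.31%. The difference was positive in 43.8% of genes and negative in 56.2%.

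Effects had opposite signs in 7380 of all genes tested (64.8%). Among the 1240 genes they did so in 1171 (94.4%), which is a description only, because choosing genes by the difference of effects favours effects of opposite sign. The cardiomyocyte effect was the larger in size for 1018 (82.1%) of these 1240. Over all genes the cardiomyocyte effects had an SD of 0.322 and the heart effects one of 0.196. Their median standard errors of 0.166 and 0.158 are close by construction, because the fit shares its estimate of spread across all groups. The median SD between libraries was itself wider in cardiomyocytes (0.259 and 0.261) than in hearts (0.185 and 0.154). Across the 11386 genes, Pearson's r between the effects was -0.32 and Spearman's rho -0.40. This describes genes that share the same libraries and are not independent. These signs follow the heart labels as given: were the heart labels turned, both correlations would change sign and genes of opposite sign would become genes of the same sign. The median effect was -0.03 in hearts, 0.02 in cardiomyocytes and -0.04 for the difference, the values against which gene groups are read below.

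**Figure D2:**
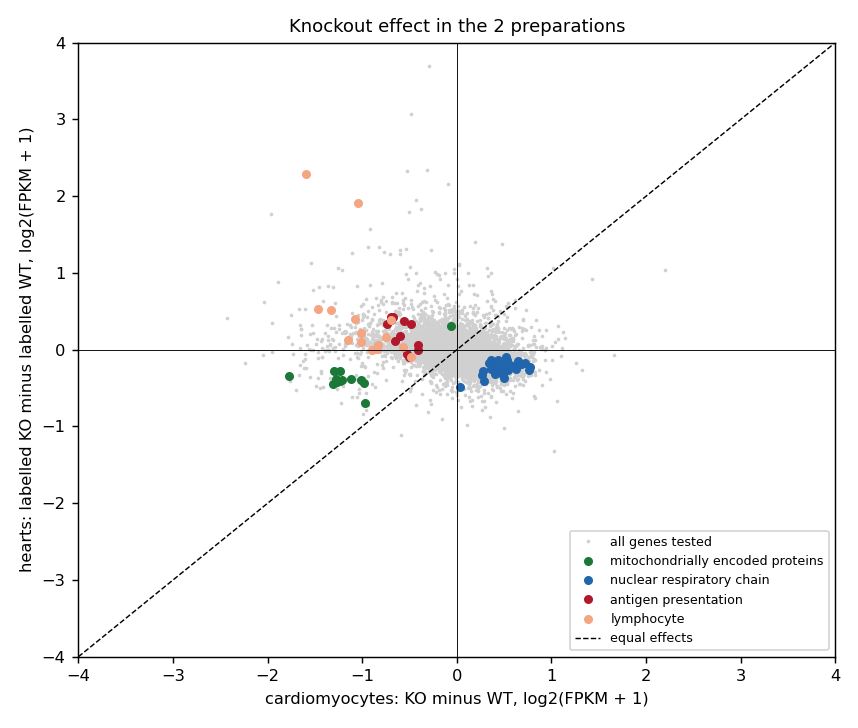
Heart effect (labelled knockout minus labelled wild-type, vertical) against cardiomyocyte effect (knockout minus wild-type, horizontal) in log2(FPKM + 1) for each of 11386 genes, with 4 gene groups coloured and the line of equal effects dashed. Nuclear respiratory chain genes lie at the lower right, antigen presentation and lymphocyte genes at the left, and most mitochondrially encoded genes at the lower left.

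The libraries of both preparations separated by label, in opposite directions, for 12 genes. In 8 of them (0.0703% of genes tested) the hearts labelled knockout all lay above those labelled wild-type and the knockout cardiomyocytes all below the wild-type ones: Efhd2, Ptk2b, Laptm5, Pcolce, Sirpa, Rcc2, Tbcd and 2610524H06Rik. In 4 (0.0351%) the order was the reverse: Akap7, Mgme1, Rapgef4 and Smco4. Another 3 genes (0.0263%) were higher in the knockout groups of both preparations (Ndnf, Gdf15 and Klhdc7a), and 0 were lower in both. These genes were listed after their values were seen. Ndnf and Gdf15 passed the filter only with the hearts labelled knockout, where they were highest.

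Efhd2, which encodes the calcium-binding protein swiprosin-1, had an FPKM of 25.6, 29.6, 24.1 and 17.1 in hearts labelled knockout and 14.6, 13.7, 12.3, 14.4 and 14.3 in those labelled wild-type. In cardiomyocytes it was 13.8, 14.4, 14.6 and 13.6 in knockout and 16.6, 24.0, 15.2 and 18.4 in wild-type libraries. Neither pair of groups overlapped, the cardiomyocyte groups being separated by a small gap. Its difference of effects was 1.09 ± 0.22 (limma, adjusted p = 0.23), from a heart effect of 0.73 and a cardiomyocyte effect of -0.35. Ptk2b, the gene of the calcium-activated tyrosine kinase Pyk2, had 1.90, 1.55, 1.44 and 1.71 FPKM in hearts labelled knockout and 1.28, 0.967, 0.775, 1.10 and 0.726 in those labelled wild-type. Its cardiomyocyte values were 1.41, 2.22, 1.14 and 2.27 in knockout and 4.25, 8.03, 3.47 and 2.99 in wild-type cells, with PNXM647 the highest. Here the cardiomyocyte effect of -0.99 was larger in size than the heart effect of 0.43, and the difference was 1.42 ± 0.28 (limma, adjusted p = 0.23).

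Aldh18a1, whose enzyme starts proline synthesis from glutamate, had the smallest p in the difference of effects (0.67 ± 0.12; limma, adjusted p = 0.23). Its FPKM was 2.07, 1.82, 2.08 and 1.96 in knockout cardiomyocytes and 3.29, 3.34, 2.57 and 3.15 in wild-type ones, which did not overlap. In hearts it was 2.05, 1.73, 1.54 and 1.77 when labelled knockout and 1.18, 1.51, 1.34, 1.30 and 1.61 when labelled wild-type, with a single heart of each label crossing. It was past the threshold in 1 of the 17 fits that left out a library. The other genes that lead the higher side are Cd3d, Lck, H2-DMa, Lsp1, Ly6d, Ptpn6, H2-Eb1 and Spib, with Fam46b beside them, and their differences ranged from 0.85 to 2.13 (limma, adjusted p 0.23 to 0.32). Fam46b was the exception in where it varied. It had 2.30, 2.58, 3.07 and 2.05 FPKM in hearts labelled knockout and 0.541 to 1.24 in those labelled wild-type, a heart effect of 0.83, against a cardiomyocyte effect of -0.28.

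On the lower side, Akap7, an anchoring protein gene whose product holds protein kinase A near calcium channels and phospholamban, led with -0.61 ± 0.12 (limma, adjusted p = 0.23). Its FPKM was 2.95, 3.26, 3.26 and 3.6 in hearts labelled knockout and 4.0, 3.64, 3.78, 3.85 and 4.28 in those labelled wild-type. In cardiomyocytes it was 2.24, 2.37, 2.24 and 2.38 in knockout and 1.75, 1.19, 1.60 and 1.45 in wild-type cells. The knockout cardiomyocytes were tightly grouped and above all wild-type ones, and the hearts were ordered the other way with a small gap. Rapgef4, the gene of the cAMP sensor Epac2, followed the same order with -0.71 ± 0.17 (limma, adjusted p = 0.32). It had 1.44 to 2.27 FPKM in hearts labelled knockout, 2.31 to 3.86 in those labelled wild-type, 1.47 to 1.65 in knockout against 0.792 to 1.24 in wild-type cardiomyocytes. Both genes act in cAMP signalling, and neither was in the list of beta-adrenergic and cAMP genes described later.

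Smco4, a small membrane protein gene, had the most negative difference among these 12 genes, -1.22 ± 0.25 (limma, adjusted p = 0.23). Its FPKM was 7.10, 5.71, 6.45 and 6.99 in hearts labelled knockout and 7.23, 9.23, 12.3, 12.7 and 13.3 in those labelled wild-type, and 17.5, 23.4, 20.8 and 17.1 in knockout against 12.8, 10.2, 12.3 and 16.1 in wild-type cardiomyocytes. The groups separated in each preparation, in hearts by a narrow gap. Smco4 lies at chr9:15505487-15545260 (plus strand), on the chromosome of Panx1. Mgme1, an exonuclease gene of mitochondrial DNA replication, had -0.53 ± 0.12 (limma, adjusted p = 0.32). Its values were 3.46 to 3.93 FPKM in hearts labelled knockout, 4.11 to 4.90 in those labelled wild-type, 2.0 to 2.87 in knockout against 1.55 to 1.86 in wild-type cardiomyocytes. Mtif2, a mitochondrial translation initiation factor gene, had -0.69 ± 0.19 (limma, adjusted p = 0.33). Tmem80, Tmem82, Rgs4, Idua, Tmem252, Morf4l1 and Ebag9 completed the lower side with differences from -0.89 to -0.45 (limma, adjusted p 0.32 to 0.33). Of these, Tmem82 varied mainly in hearts, with 1.14 to 2.09 FPKM when labelled knockout and 2.69 to 4.64 when labelled wild-type. Rgs4, which encodes a brake on G protein signalling, had an effect of -0.24 in hearts and 0.32 in cardiomyocytes.

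**Figure D3:**
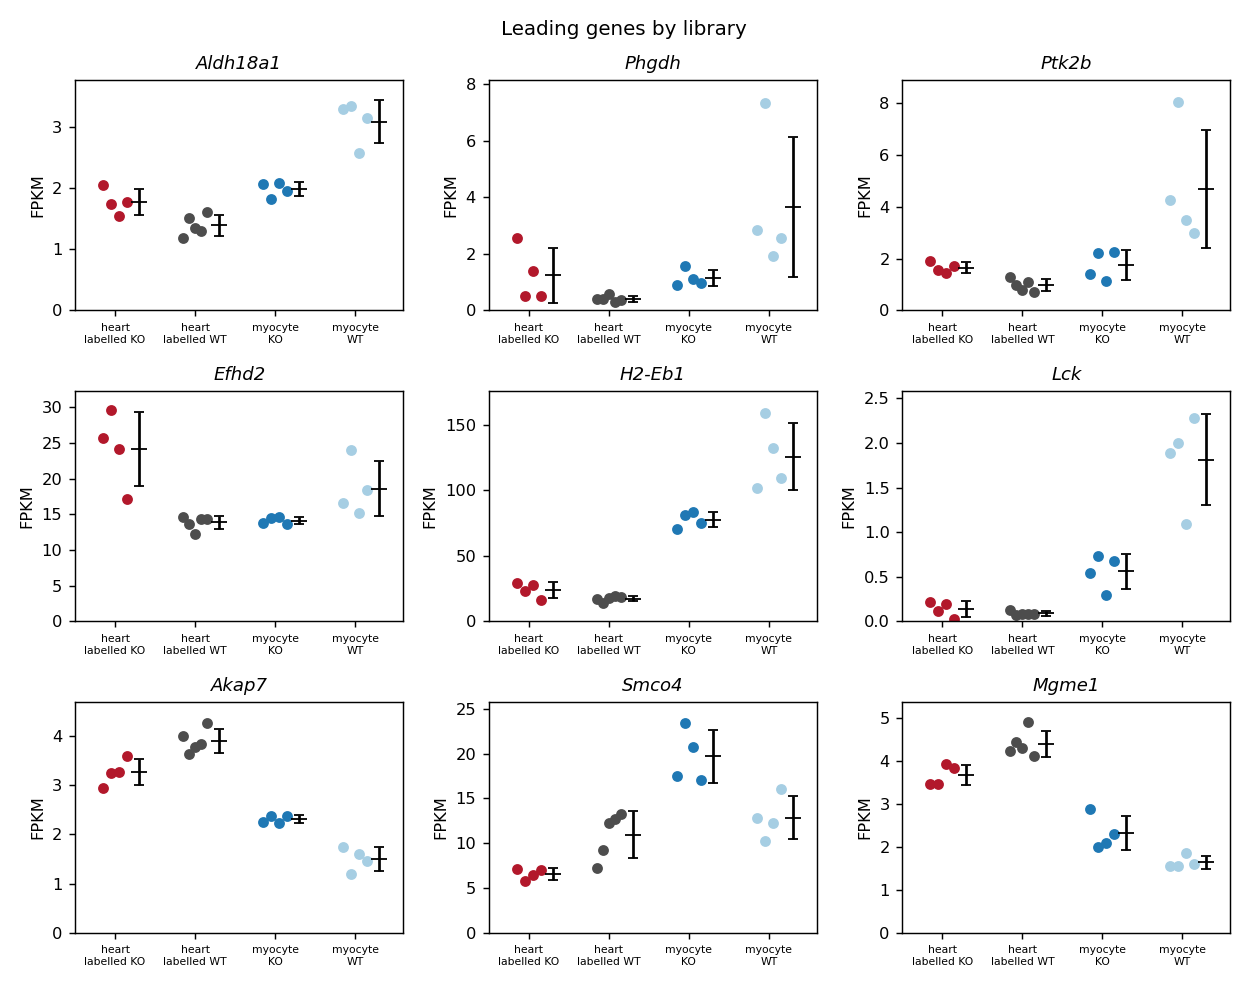
FPKM of 9 genes in each of the 17 isoproterenol libraries (points) with the mean and SD of each group (bars). Akap7, Smco4 and Mgme1 are lower in hearts labelled knockout and higher in knockout cardiomyocytes, while Efhd2 and Ptk2b have the reverse order.

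The 2 genes called in cardiomyocytes are T cell genes, both lower in knockout cells. Lck, the T cell receptor kinase gene, had 0.541, 0.737, 0.298 and 0.681 FPKM in knockout and 1.88, 2.0, 1.09 and 2.28 in wild-type cardiomyocytes, and had a cardiomyocyte effect of -0.84 ± 0.13 (limma, adjusted p = 0.0497). Cd3d, a subunit of the T cell receptor complex, had 0.239, 0.612, 0.0659 and 0.490 against 1.37, 1.71, 1.18 and 1.32 FPKM and a cardiomyocyte effect of -0.84 ± 0.12 (limma, adjusted p = 0.0371). Neither gene overlapped between the cardiomyocyte groups. In hearts both were near 0 in either group, at 0.0273 to 0.214 against 0.0671 to 0.131 FPKM for Lck and 0.0121 to 0.128 against 0.0135 to 0.104 FPKM for Cd3d. Both passed the filter through wild-type cardiomyocytes alone, and each call held in 2 of the 13 fits without 1 library in which the gene still passed. The adjusted p there (limma) reached 0.202 for Cd3d and 0.267 for Lck. Their differences of effects were 0.89 ± 0.18 and 0.85 ± 0.17 (limma, adjusted p = 0.23 for each).

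B cell genes had group means in the same order. Cd79b, a B cell receptor subunit gene, had 4.99, 13.5, 5.39 and 5.05 FPKM in knockout and 19.3, 32.8, 14.0 and 11.8 in wild-type cardiomyocytes, an overlap through PNXM656 only. In hearts it had 1.12, 0.307, 2.34 and 0.212 FPKM when labelled knockout and 0.112 to 0.416 when labelled wild-type, so that PNXM199 and PNXM239 stood above every other heart. Its difference was 1.84 ± 0.47 (limma, adjusted p = 0.32). Spib, a B cell and plasmacytoid transcription factor gene, and Ly6d, a surface marker of early B cells, had differences of 1.62 ± 0.38 and 2.13 ± 0.47 (limma, adjusted p = 0.32 and 0.27). Of the 20 lymphocyte genes 15 passed the filter, 9 of them only through 1 group, so no count over them is used. The whole list summed to 246.1 to 502.7 FPKM in knockout and 518.3 to 1082 FPKM in wild-type cardiomyocytes, and in hearts to 42.58 to 337.1 FPKM when labelled knockout and 37.95 to 58.14 FPKM when labelled wild-type. The high hearts were again PNXM239 (337.1 FPKM) and PNXM199 (126.2 FPKM). Without Cd74, the sums were 72.61, 284.7, 87.44 and 155.1 FPKM in knockout and 292, 653, 298.1 and 257.6 FPKM in wild-type cardiomyocytes, so that the groups overlapped through PNXM656 of the first and PNXM648 of the second.

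Antigen presentation genes differed in the same direction at higher levels. All 12 list members passed the filter, 1 of them only through 1 group, and all 12 had a positive difference of effects, against 43.8% of all genes, with a median of 0.80. At an unadjusted p below 0.05 there were 8 of 12, against a background of 6.72%. In cardiomyocytes the groups did not overlap for 10 of the 12, all lower in knockout cells, where 2.31% of all genes were so. H2-Eb1, an MHC class II beta chain gene whose promoter is printed above, had 70.8, 80.9, 83.2 and 74.9 FPKM in knockout and 102, 159, 132 and 109 in wild-type cardiomyocytes. In hearts it had 29.1, 23.2, 28.2 and 16.1 FPKM when labelled knockout and 17.2, 14.2, 17.9, 19.0 and 18.3 when labelled wild-type, so 3 of 4 lay above. Its difference was 1.10 ± 0.26 (limma, adjusted p = 0.32).

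Cd74, the invariant chain that guides class II molecules, had 174, 218, 217 and 186 FPKM in knockout and 280, 429, 332 and 261 in wild-type cardiomyocytes. Its heart values were 59.5, 54.0, 72.5 and 37.6 FPKM when labelled knockout and 34.5 to 49.5 when labelled wild-type. The cardiomyocyte groups were apart and the heart groups overlapped through PNXM242, as for H2-Eb1. The difference was 1.07 ± 0.29 (limma, adjusted p = 0.32). H2-Ab1 (1.12 ± 0.30) and the peptide exchange factor gene H2-DMa (1.08 ± 0.23) were similar (limma, adjusted p = 0.32 and 0.25). The list summed to 853.6 to 1155 FPKM in knockout and 1362 to 1802 FPKM in wild-type cardiomyocytes, and to 269.1 to 437.5 and 269.6 to 393.4 FPKM in hearts labelled knockout and wild-type. Without PNXM199 and PNXM239, the median difference over the list was 0.52, and without any single library it was 0.67 to 0.94. B cells and macrophages carry class II transcripts, and the lymphocyte sums without Cd74, given above, were lower in 3 of the 4 knockout cardiomyocyte libraries than in every wild-type one; their part in the result was not tested. Peptide supply genes of the interferon list shared the order in cardiomyocytes. Psmb9, an immunoproteasome subunit gene, had 3.27 to 4.90 FPKM in knockout and 5.6 to 7.82 in wild-type cardiomyocytes and a difference of 0.66 ± 0.19 (limma, adjusted p = 0.33). Over the 21 of 24 interferon genes tested the median difference was 0.15, with 3 at an unadjusted p below 0.05 and higher, against 6.72% of all genes. The median was 0.10 without PNXM199, 0.23 without PNXM646 and 0.27 without PNXM656.

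Neutrophil genes differed widely between libraries of a genotype. The 20 genes of the list summed to 30.02, 1018, 230.2 and 75.80 FPKM in knockout cardiomyocytes and to 157.4, 3401, 48.99 and 2354 FPKM in wild-type ones, so the groups overlapped over most of their range. In hearts the sums were 13.72, 3.098, 15.01 and 2.202 FPKM when labelled knockout and 1.448 to 4.872 FPKM when labelled wild-type. Ltf, the granule protein lactoferrin, showed this most. It had 9.67 and 12.2 FPKM in PNXM199 and PNXM239 but 0.0102 and 0.00463 in the other hearts labelled knockout, and 0.00497 to 0.0278 in those labelled wild-type. In cardiomyocytes Ltf ranged from 1.10 to 32.5 FPKM in knockout and from 4.39 to 139 in wild-type libraries, and its difference of 3.73 ± 1.54 was not past the test (limma, adjusted p = 0.43). Ly6g, the defining surface marker of mouse neutrophils, was listed at 0 in all 4 hearts labelled knockout and in 4 of the 5 labelled wild-type, with 0.019 FPKM in the other. Of the 20 genes 16 passed the filter, 8 only through 1 group, and the median difference over those tested was 0.62 without PNXM647, 0.85 without PNXM648 and 2.40 without PNXM645.

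Among the recruitment signals 10 of 20 genes passed the filter, with 9 positive differences, against 43.8% of all genes, and a median of 0.31; 2 of the 10 passed only through 1 group. Ccl5, a chemokine gene for T cells and monocytes, had 0.870, 2.90, 0.863 and 2.28 FPKM in knockout and 4.63, 3.74, 4.13 and 4.38 in wild-type cardiomyocytes, which did not overlap. In hearts it was 0.201 to 0.407 FPKM when labelled knockout and 0.0931 to 0.580 when labelled wild-type. The difference of 0.98 ± 0.27 (limma, adjusted p = 0.33) thus came from the isolated cells. Ccl5 itself passed the filter only with the wild-type cardiomyocytes, where it was highest. Itgb2, the common beta subunit of leukocyte integrins, had a difference of 1.49 ± 0.43 (limma, adjusted p = 0.33). It was 1.69 to 2.07 FPKM in hearts labelled knockout and 0.919 to 1.65 in those labelled wild-type, with no overlap, and 4.73 to 12.9 FPKM in knockout against 10.2 to 41.4 in wild-type cardiomyocytes.

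Macrophage genes had effects of opposite sign in 17 of 20 cases, against 64.8% of all genes. Of the 20 genes, all tested and 3 passing only through 1 group, 19 had a positive difference (median 0.50), against 43.8% of all genes, with a median heart effect of 0.32 and a median cardiomyocyte effect of -0.17, and 7 were at an unadjusted p below 0.05 and higher, against 6.72%. The median difference was 0.22 with weights estimated for each library. Cd68, a lysosomal macrophage marker, had 3.55, 4.34, 2.81 and 3.47 FPKM in hearts labelled knockout and 2.14, 1.86, 3.31, 2.86 and 2.18 in those labelled wild-type. Its cardiomyocyte values were 6.71, 7.30, 9.29 and 7.97 FPKM in knockout and 8.19, 13.3, 9.14 and 11.4 in wild-type cells. The groups overlapped in both, and the difference was 0.77 ± 0.22 (limma, adjusted p = 0.33). Lyz2, the lysozyme gene of myeloid cells, had 91.6 to 144 FPKM in hearts labelled knockout and 58.6 to 91.2 in those labelled wild-type, apart by a narrow gap, and a difference of 1.34 ± 0.46 (limma, adjusted p = 0.38). The list summed to 226.8 to 347.4 FPKM in hearts labelled knockout, 154.5 to 233.9 in those labelled wild-type, 428.4 to 628.8 in knockout against 522.9 to 1276 in wild-type cardiomyocytes.

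**Figure D4:**
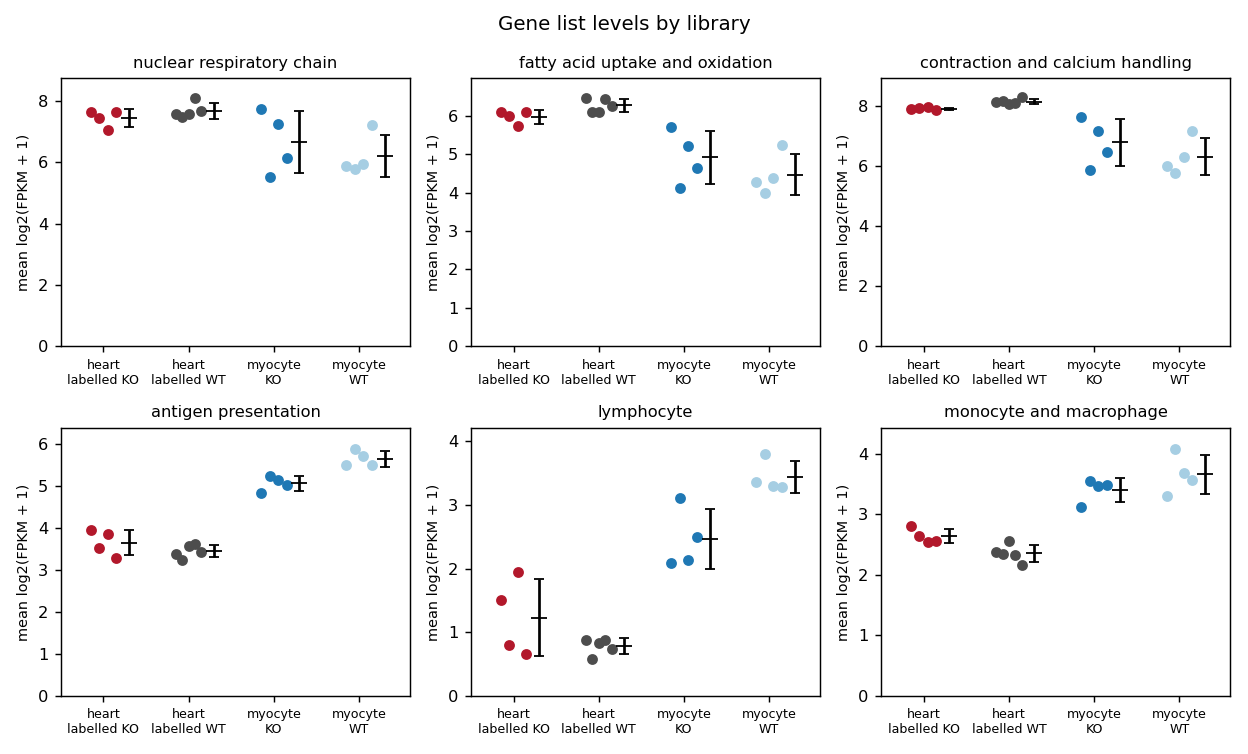
Mean log2(FPKM + 1) over the tested members of 6 gene lists in each of the 17 isoproterenol libraries (points) with the mean and SD of each group (bars). Antigen presentation levels are lower in knockout than wild-type cardiomyocytes, and in the lymphocyte panel, where 9 of the 15 members passed the filter only through 1 group, PNXM239 and PNXM199 lie above the other hearts.

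Fibroblast and matrix genes had positive differences of moderate size. Of 16 fibroblast genes 15 were positive (median 0.57), and of 25 matrix genes tested of 27, 21 were positive (median 0.41), against 43.8% of all genes. Of the matrix genes tested 1 passed the filter only through 1 group. In each list 4 genes were at an unadjusted p below 0.05 and higher, where 6.72% of all genes were so. The matrix median was 0.23 without PNXM239, 0.27 without PNXM654 and 0.20 with weights for each library, under which the fibroblast median was 0.34. Timp1, the inhibitor of matrix metalloproteinases that accompanies fibrosis, had 6.17, 8.14, 3.5 and 4.45 FPKM in hearts labelled knockout and 2.94, 2.07, 3.07, 2.21 and 1.02 in those labelled wild-type, without overlap. In cardiomyocytes it was 3.53 to 4.31 FPKM in knockout and 1.85 to 6.28 in wild-type cells, and its difference was 1.12 ± 0.39 (limma, adjusted p = 0.38). For Timp1 the heart effect of 1.00 made up most of the difference. Tcf21, a fibroblast transcription factor gene, instead separated in cardiomyocytes, narrowly, with 9.94 to 13.8 FPKM in knockout libraries and 13.8 to 23.2 in the wild-type ones and a difference of 0.79 ± 0.34 (limma, adjusted p = 0.44). The fibroblast list summed to 1241 to 1785 FPKM in knockout and 1744 to 2468 FPKM in wild-type cardiomyocytes.

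Hearts PNXM199 and PNXM239, both labelled knockout, stood apart from the other hearts of that label in atrial and adipocyte genes as well. Bmp10, a growth factor gene of atrial myocytes, had 160 and 118 FPKM in them, 0.0267 and 0 in the other hearts labelled knockout, and 39.8, 0, 2.23, 0 and 0 in those labelled wild-type. Adipocyte genes summed to 557.3 and 384.3 FPKM in these hearts, 22.41 and 21.11 FPKM in the others labelled knockout, and 19.58 to 217.6 FPKM in those labelled wild-type. Nppa, the atrial natriuretic peptide gene that is also a marker of hypertrophy, had 2155, 631, 990 and 222 FPKM in hearts labelled knockout and 304, 363, 75.3, 78 and 577 in those labelled wild-type, and its difference of 2.21 ± 0.94 was not past the test (limma, adjusted p = 0.44). The median difference over the 11 atrial genes was 0.60 with all libraries and -1.72 without these hearts, and over the 9 of 11 adipocyte genes tested 1.2 and -0.87. The direction of both groups turned without them, an alternative chosen after seeing the data. The atrial median was also -0.24 without PNXM199 alone and -0.02 without PNXM239 alone, and the adipocyte median 0.52 and 0.67. Of the adipocyte genes tested 4, and of the atrial genes 1, would not pass the filter with 1 of the groups left out. Without PNXM199 and PNXM239, 565 genes were at an unadjusted p below 0.05 in the difference, in place of 1240, and 0 were called by limma. The median over fibroblast genes was then 0.34 in place of 0.57, and that over erythroid genes 0.70 in place of 1.35.

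Transcripts of the respiratory chain differed by the genome that encodes them. All 13 mitochondrially encoded protein genes had a positive difference (median 0.83), against 43.8% of all genes, with a median cardiomyocyte effect of -1.23 and a median heart effect of -0.39. mt-Co1, a subunit of cytochrome c oxidase, had 106844, 186345, 161827 and 185266 FPKM in knockout and 367533, 435693, 276620 and 418209 in wild-type cardiomyocytes, without overlap. In hearts it had 25449, 34319, 26441 and 37723 FPKM when labelled knockout and 33940 to 44913 when labelled wild-type. Its difference was 0.83 ± 0.32 (limma, adjusted p = 0.42). For 10 of the 13 genes the cardiomyocyte groups did not overlap, where 2.31% of all genes were so and lower in knockout cells. Quantile normalisation, which forces libraries to one distribution, set the median of the 13 to 0.00 and mt-Nd2 to -0.05, so their direction depends on the scaling.

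The 42 nuclear genes of the chain all had a negative difference (median -0.67), against 56.2% of all genes, with a median heart effect of -0.22 and a median cardiomyocyte effect of 0.44, and all 42 had effects of opposite sign, against 64.8%. Only 1 of the 42 was at an unadjusted p below 0.05, against 4.17% of all genes that were so and lower. That gene, Ndufs1, a core subunit of complex I, had 38.5, 40.8, 35.6 and 46.0 FPKM in hearts labelled knockout and 47.3, 47.2, 50.5, 56.1 and 52.3 in those labelled wild-type. In cardiomyocytes it had 16.6, 6.36, 10.9 and 10.1 FPKM in knockout and 5.64, 4.45, 9.44 and 10.8 in wild-type libraries. The heart groups did not overlap and the cardiomyocyte groups did, and the difference was -0.82 ± 0.34 (limma, adjusted p = 0.44). The spread among cardiomyocyte libraries was wide. The list summed to 15960, 2774, 11470 and 4519 FPKM in knockout and 3817, 3775, 3785 and 11540 FPKM in wild-type cardiomyocytes, so that PNXM654 and PNXM655 of the first and PNXM648 of the second were high. The median difference was -0.32 without PNXM654, -1.04 without PNXM656 and -0.28 with weights for each library.

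Genes of fuel oxidation had the sign of the nuclear chain. In the tricarboxylic acid cycle list 24 of 25 genes had a negative difference (median -0.73), and in the fatty acid list 30 of the 31 tested of 32 (median -0.75), against 56.2% of all genes. In these lists 3 and 5 genes were at an unadjusted p below 0.05 and lower, where 4.17% of all genes were so. The tricarboxylic acid cycle median was -0.43 without PNXM654, and with weights for each library the medians were -0.40 and -0.47. Mpc1, a subunit of the mitochondrial pyruvate carrier, had 22.7, 4.69, 12.9 and 8.35 FPKM in knockout and 5.14, 2.77, 5.71 and 7.49 in wild-type cardiomyocytes and overlapping levels in hearts, 15.4 to 26.5 against 19.0 to 27.0. Its difference was -1.07 ± 0.46 (limma, adjusted p = 0.44). Acot1, a cytosolic acyl-CoA thioesterase gene controlled by PPAR alpha, instead varied in hearts, with 6.46, 3.27, 5.33 and 4.27 FPKM when labelled knockout and 15.2, 6.98, 6.94, 8.33 and 7.36 when labelled wild-type, and a difference of -1.04 ± 0.38 (limma, adjusted p = 0.39). Acot1 and its neighbour Acot2 are near-identical copies between which counting can split reads, so their values are uncertain. Glycolysis genes had no such order. Of 24, 2 of which passed the filter only through 1 group, 9 had a positive and 15 a negative difference. Their median of -0.21 was 0.07 without PNXM654 and 0.11 with weights for each library. Among the regulators of these genes, Ppargc1a, the coactivator of mitochondrial biogenesis, had a difference of -0.88 ± 0.42 (limma, adjusted p = 0.46). Of 15 metabolic regulators, 1 of them passing only through 1 group, 13 were negative, against 56.2% of all genes. Their median of -0.21 was -0.02 without PNXM199 and -0.34 without PNXM241.

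Contraction genes had the lowest median of the 31 lists, -0.79, with 23 of 24 negative, against 56.2% of all genes. Pln, which encodes phospholamban, the brake on calcium uptake into the sarcoplasmic reticulum, had 866, 252, 610 and 443 FPKM in knockout and 229, 175, 370 and 563 in wild-type cardiomyocytes. In hearts it had 959, 1239, 1029 and 1509 FPKM when labelled knockout and 1394 to 1705 when labelled wild-type. The groups overlapped in both preparations and the difference was -1.16 ± 0.50 (limma, adjusted p = 0.44). Myh6, whose promoter drives the deletion, had 1001, 334, 847 and 526 FPKM in knockout and 311, 314, 532 and 759 in wild-type cardiomyocytes, and a difference of -0.79 ± 0.50 (limma, adjusted p = 0.54). The median over the contraction list was -1.13 without PNXM656, -0.44 without PNXM654 and -0.41 with weights for each library. Among cardiomyocyte libraries the summed contraction genes were lowest in PNXM656 (3722 FPKM) and highest in PNXM654 (16250 FPKM), both knockout. Lymphocyte sums without Cd74 in these libraries were 284.7 and 72.61 FPKM, the highest and the lowest among knockout cardiomyocytes. The part of cell composition in these results was not tested.

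Genes of mitochondrial gene expression shared the negative sign at smaller size. All 27 mitochondrial ribosomal protein genes (median -0.42) and all 17 tested of 21 mitochondrial transcription and RNA genes (median -0.30, 1 passing only through 1 group) were negative, against 56.2% of all genes, with 1 and 5 at an unadjusted p below 0.05 and lower. For the ribosomal proteins this is no more than the 4.17% of all genes that were so, and their median was -0.12 without PNXM654, -0.24 without PNXM655, -0.64 without PNXM656 and 0.02, the other sign, with weights for each library. Tfam, the factor that packs and transcribes mitochondrial DNA, had 4.30, 3.18, 3.01 and 3.57 FPKM in knockout and 2.60, 2.0, 3.26 and 3.30 in wild-type cardiomyocytes, and 4.51 to 5.56 against 5.22 to 7.02 in hearts. Its difference was -0.45 ± 0.18 (limma, adjusted p = 0.42). The 32 cytosolic ribosomal protein genes had 29 positive differences, against 43.8% of all genes, and a median of 0.12, which ranged from 0.02 to 0.27 over fits without 1 library.

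**Figure D5:**
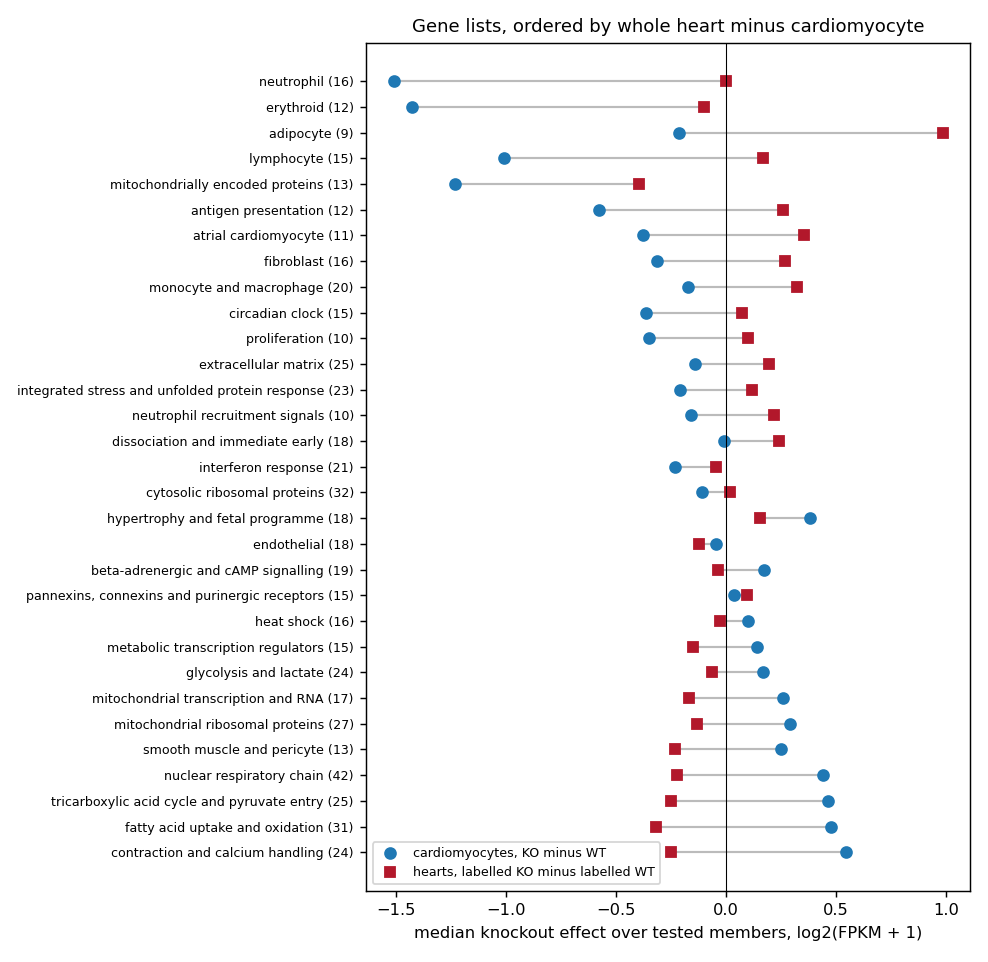
Median effect over the tested members (their number in brackets) of each of 31 gene lists in cardiomyocytes (circles) and in hearts by label (squares), in log2(FPKM + 1), ordered by the difference. Neutrophil, erythroid, lymphocyte and mitochondrially encoded genes lie farthest left in cardiomyocytes, and contraction and fuel oxidation genes lie right in cardiomyocytes and left in hearts. Of tested members, 8 of 16 neutrophil, 9 of 15 lymphocyte and 2 of 12 erythroid genes passed the filter only through 1 group. The places of these lists are therefore not read as a result.

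Genes of the integrated stress and unfolded protein response, which include enzymes of amino acid synthesis, had 16 positive differences among the 23 tested of 25, against 43.8% of all genes. Of the 23, 2 passed the filter only through 1 group. At an unadjusted p below 0.05 and higher there were 7, where 6.72% of all genes were so. The median of 0.40 was 0.26 without PNXM647 and 0.028 with a filter of FPKM 5, and 0.20 with the filter applied in each tissue, an alternative chosen after seeing the data. Asns, whose promoter is printed above, had 1.51, 1.07, 0.941 and 0.777 FPKM in hearts labelled knockout and 0.435, 0.726, 0.522, 0.644 and 0.464 in those labelled wild-type, without overlap. In cardiomyocytes it had 0.842, 1.23, 1.67 and 1.11 FPKM in knockout and 1.66, 2.69, 1.5 and 1.80 in wild-type cells, where PNXM655 overlapped. The difference was 0.79 ± 0.20 (limma, adjusted p = 0.32). Phgdh, the first enzyme of serine synthesis, had 0.904, 1.56, 1.12 and 0.982 FPKM in knockout and 2.85, 7.33, 1.93 and 2.56 in wild-type cardiomyocytes, without overlap. Its heart values were 2.55, 0.516, 1.38 and 0.489 FPKM when labelled knockout and 0.280 to 0.583 when labelled wild-type, so that PNXM199 and PNXM239 were high once more. The difference was 1.58 ± 0.39 (limma, adjusted p = 0.32). Psat1, the next enzyme of that pathway, had 0.579 to 1.04 FPKM in hearts labelled knockout and 0.374 to 0.541 in those labelled wild-type, apart by a narrow gap, and a difference of 0.64 ± 0.17 (limma, adjusted p = 0.32).

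Channels and receptors near pannexin had no common direction, with 7 positive and 8 negative of the 15 tested of 19 genes. Of the 15, 3 passed the filter only through 1 group. Gja1, the main connexin gene of ventricular gap junctions, had 76.1, 44.5, 57.7 and 39.8 FPKM in knockout and 32.1, 23.6, 31.0 and 40.9 in wild-type cardiomyocytes, with overlap through PNXM648 and PNXM646. In hearts it had 54.4 to 67.4 FPKM when labelled knockout and 53.8 to 81.5 when labelled wild-type, and its difference was -0.88 ± 0.29 (limma, adjusted p = 0.38). P2ry1, a purinergic receptor gene for ADP, instead varied in hearts, with 2.39, 1.92, 2.42 and 3.38 FPKM when labelled knockout and 4.12, 3.98, 4.27, 3.96 and 3.17 when labelled wild-type, an overlap of 1 heart on each side. Its difference was -0.71 ± 0.22 (limma, adjusted p = 0.35). Of 19 beta-adrenergic and cAMP genes tested of 21, 1 of them passing only through 1 group, 7 had a positive and 12 a negative difference. Adrb1, the main beta-adrenergic receptor of the heart, had 4.91, 2.33, 3.38 and 2.16 FPKM in knockout and 1.35, 1.67, 2.48 and 2.35 in wild-type cardiomyocytes and a difference of -0.78 ± 0.29 (limma, adjusted p = 0.39).

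Of the other lists, erythroid genes were positive in 12 of 12, 2 of them passing the filter only through 1 group, against 43.8% of all genes. Their median of 1.35 was 0.73 without PNXM199, 0.84 without PNXM647 and 0.30 with weights for each library. Their sums of 5643 to 13660 FPKM in knockout and 6830 to 70270 FPKM in wild-type cardiomyocytes overlapped, and hearts had 95.34 to 637.2 FPKM. Smooth muscle and pericyte genes were negative in 13 of 13, 1 of them passing only through 1 group, against 56.2% of all genes. Their median of -0.44 was -0.27 without PNXM238 and -0.18 with weights for each library. Endothelial genes divided into 6 positive and 12 negative (median -0.08). Immediate early genes had a median of 0.22, heat shock genes -0.16, proliferation genes 0.47 (10 of 20 tested, 4 through 1 group) and hypertrophy genes 0.01. The endothelial and hypertrophy medians changed sign in several fits without 1 library. Among 15 clock genes tested of 16, Arntl, the positive arm of the clock, had 0.926, 1.79, 3.23 and 2.15 FPKM in hearts labelled knockout and 1.92, 7.45, 2.61, 3.59 and 3.41 in those labelled wild-type. Its cardiomyocyte values were 4.25, 5.57, 2.84 and 4.03 FPKM in knockout and 2.86, 1.69, 0.783 and 2.68 in wild-type cells, and its difference was -1.45 ± 0.43 (limma, adjusted p = 0.33). Tef, a clock output factor gene, had 4.24 to 6.03 FPKM in knockout and 6.17 to 15.4 in wild-type cardiomyocytes, without overlap, and a difference of 0.85 ± 0.32 (limma, adjusted p = 0.39). Times of tissue collection are not given in the sources used here.

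Some genes had effects of one sign in both preparations. Ndnf, a secreted factor gene that promotes endothelial survival, was higher in hearts labelled knockout by 1.07 ± 0.15 (limma, adjusted p = 0.0209), with 3.02, 2.91, 2.51 and 3.15 FPKM against 1.69, 0.966, 0.583, 0.358 and 0.927. In cardiomyocytes it had 0.732, 0.467, 0.545 and 0.444 FPKM in knockout and 0.157, 0.260, 0.372 and 0.174 in wild-type cells. The groups were apart in each preparation, and the call in hearts held in 11 of 17 fits without 1 library, with adjusted p from 0.000524 to 0.127. Ndnf passed the filter through the hearts labelled knockout and 1 other heart (1.69 FPKM), and with the filter applied in each tissue, an alternative chosen after seeing the data, Ndnf was left out by its cardiomyocyte values and 0 genes were called in hearts. Its difference of 0.75 ± 0.22 was not past the test (limma, adjusted p = 0.33). Gdf15, a stress cytokine gene, had 1.15, 18.0, 1.19 and 4.65 FPKM in hearts labelled knockout and 0.530 to 0.946 in those labelled wild-type, and 0.655 to 1.63 FPKM in knockout against 0.443 to 0.561 in wild-type cardiomyocytes. Its heart level in PNXM229 was far above the rest, and the difference was 0.90 ± 0.64 (limma, adjusted p = 0.59). Gdf15 passed the filter only with the hearts labelled knockout, where it was highest. Klhdc7a, a kelch protein gene, had a mean of 1.81 against 0.695 FPKM in hearts and 0.490 against 0.146 FPKM in cardiomyocytes, with effects of 0.73 and 0.37.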

How the data were processed

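RNA-seq of whole hearts and isolated cardiomyocytes was deposited as 1 table of FPKM values, and per the submitters' processing notes reads were handled with HISAT2 2.0.5 and featureCounts. Column headers containing WHO were taken as whole heart. The deposited FPKM values carry a scaling between libraries (size used over assigned reads 0.426 to 1.88). Whole reads were recovered from the FPKM steps (425620 values, at most 2.1e-06 from a whole read). No genome build is named in those notes; coordinates overlap GENCODE M21 (GRCm38) for 99.9% of 45228 shared IDs. A misaligned line was left out and 27 symbols stored as dates were restored. Strandedness is not stated, so overlapping and antisense genes cannot be told apart.

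Genes at an FPKM of at least 1 in at least 4 of the 17 libraries were tested on log2(FPKM + 1) in limma 3.58.1 (R 4.3.3), with 4 groups, empirical Bayes moderation with trend and Benjamini-Hochberg adjustment at 0.05. List members counted as passing only through 1 group are those that would not pass with some 1 group left out. Libraries of other groups may also reach an FPKM of 1 for them. The scripts were tested on simulated data. Panx1 and the mitochondrial share were tested by two-sided exact permutation of genotype labels within each preparation. Python 3.11.15, numpy 2.4.6, pandas 2.3.3 and matplotlib 3.10.9 did the rest. Named genes are Panx1, Myh6, the 12 of smallest p in each direction of the difference and up to 4 per list by unadjusted p; genes named otherwise are marked. The genes and 31 lists were chosen with earlier results of these data known. Besides leaving out each of 17 libraries, 14 alternatives were planned and 2 were added after seeing the data. A gene that the rule named is not reported here.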

Additional observations from a re-analysis of the deposited data

Results flagged for a closer look

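In 4 genes every heart labelled knockout lay below every heart labelled wild-type and every knockout cardiomyocyte library above every wild-type one, and in Ptk2b and Efhd2 the order was the reverse. Their differences of effects were 1.42 for Ptk2b, 1.09 for Efhd2, -0.61 for Akap7, -1.22 for Smco4, -0.53 for Mgme1 and -0.71 for Rapgef4. None of these was past limma's test of the difference after adjustment. The Panx1 difference of 0.54 was past its exact permutation test (adjusted p = 0.00272), with Panx1 on average higher in the hearts labelled knockout. That test assumes no effect in either preparation, and the Panx1 difference was not past limma's test after adjustment. Panx1 passed the filter for limma's test only with the wild-type cardiomyocytes, where it was highest.

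Single libraries stood far from the rest of their group for 7 of the leading genes. They were Ly6d in PNXM238 (0.0481 FPKM, low), Mgme1 in PNXM645 (1.86, high), Tmem80 in PNXM242 (2.08, high), Rapgef4 in PNXM230 (3.86, high), Tmem82 in PNXM241 (4.64, high), Idua in PNXM646 (2.70, low) and Morf4l1 in PNXM241 (8.85, high). Chance alone sets a library apart in this way in about 1 of 20 groups. With 4 groups for each leading gene, several such libraries are expected by chance, and none is read as a result.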

How the results depend on the processing

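No paired analysis was possible because the table's columns carry no replicate number. Over fits without 1 library, calls ranged from 0 to 5 in the difference of effects (1 without PNXM644, 5 without PNXM645, 4 without PNXM656), from 0 to 5 in hearts and from 0 to 112 in cardiomyocytes (104 without PNXM645, 96 without PNXM656, 112 without PNXM648). The Panx1 difference ranged from 0.463 to 0.598 and that of the mitochondrial share from 7.84 to 15.4 points. Without PNXM199 and PNXM239, an alternative chosen after seeing the data, the latter was 14.6 points (exact permutation, unadjusted p = 0.0435). In the difference, no filter gave 6 calls, array weights 170 and FPKM without the scaling 1833. In hearts (1 call), pseudocounts 0.1 and 0.5, an FPKM filter of 5, totals set equal outside the mitochondrial chromosome, voom and a filter in each tissue gave 0; array weights gave 78, a weight per tissue 10, quantile normalisation 2 and unscaled FPKM 3. In cardiomyocytes (2 calls), both pseudocounts, a weight per tissue, totals outside the mitochondrial chromosome, all 23 libraries, voom and the filter in each tissue gave 0; robust moderation gave 1, omitting PNXM199 and PNXM239 1, no filter 30, array weights 507 and unscaled FPKM 8696 (8676 higher and 20 lower). Unscaled, the median of all genes was -0.47 in the difference, 0.10 in hearts and 0.57 in cardiomyocytes.

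Signs turned for mt-Nd2 under quantile normalisation (-0.0458). With array weights they turned for Bmp10 (-0.67), Vtn (0.20), Cidec (-0.26), Scd1 (-0.64) and Plin1 (-0.53). Without PNXM199 and PNXM239 they turned for Stard10 (-0.50), Ramp2 (-0.0078), Cidec (-0.70) and Scd1 (-0.79). Unscaled they turned for Clu (-0.28), Arrb1 (-0.0495), Icam1 (-0.26), Pi16 (-0.10), Col6a2 (-0.024), Loxl1 (-0.053), Col6a1 (-0.10), Ramp2 (-0.39), Dnajb1 (-0.32), Tap1 (-0.16), Psmb8 (-0.16), Oas1a (-0.10), Rpl3 (-0.0229), Rpl10 (-0.35) and Rps16 (-0.25), among the genes reported here. The causes were not tested. Of the other alternatives for named genes 4592 left direction and call as they were, 74 gained and 48 lost the threshold. Depth outside the mitochondrial chromosome, lowest at 5.06 M reads in cardiomyocytes, limits low transcripts there.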
